A study of Mus musculus with 2 samples.

Results

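Pigment genes are the genes through which melanocytes, the pigment cells of skin, hair and some internal organs, make melanin and carry it in melanosomes. The set examined here held 9 genes, which were looked up by symbol among the 32285 genes of the deposited matrices: Dct, Tyrp1, Tyr, Pmel, Mlana, Slc45a2, Mlph, Mitf and Kit. All 9 were found. Cells that held at least 1 UMI (unique molecular identifier, a tag that marks 1 captured RNA molecule) of at least 2 of Dct, Tyrp1, Pmel and Mlana are called pigment cells in the following. There were 31 such cells, 23 of WT and 8 of mgR, among 4313 cells of the mitral valve.

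The data came from droplet single-cell RNA-Seq with 3-prime tags of mitral valve cells from WT mice (Fbn1+/+ littermates) and from Fbn1 mgR/mgR mice (abbreviated as mgR), with 1 library per genotype. The mgR allele carries an inserted cassette in an intron of Fbn1 that lowers its mRNA in homozygotes while the coding sequence is kept, and both groups were 12 weeks of age on a C57BL/6J background. Valves were digested with enzymes and viable cells were sorted, and the labels do not say how many mice went into a library. A legend on these cells gives n = 3 without saying what it counts. With 1 library per genotype no test could be made, cells are not replicates, and all intervals below are exact 95% intervals that cover counting error only.

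Melanocytes arise from the neural crest, and they are known to settle in the heart, including the valves, of pigmented mice. Melanin is made from tyrosine within melanosomes. Tyrosinase (Tyr) starts the pathway, and dopachrome tautomerase (Dct) and tyrosinase-related protein 1 (Tyrp1) act later in the synthesis of eumelanin. Pmel forms the fibrils on which the pigment is laid down, Mlana is a small membrane protein of early melanosomes, and Slc45a2 is a transporter that keeps the melanosome fit for tyrosinase. Mlph links melanosomes to the motor myosin Va. Mitf is the transcription factor that switches on most of these genes, and Kit is the receptor for stem cell factor (Kitl), which melanocytes need to migrate and survive. Mitf and Kit are also known in macrophage and mast cell lineages.

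The genes lie on separate chromosomes. In GENCODE M21 (GRCm38, the build that the labels name as mm10), all 9 are protein-coding. Dct spans 118012790 to 118052244 on chromosome 14 (minus strand), Tyrp1 spans 80834123 to 80851719 on chromosome 4 (plus strand), and Tyr spans 87424771 to 87493512 on chromosome 7 (minus strand). Pmel lies at 128704195 to 128720238 on chromosome 10 and Mlana at 29697824 to 29708634 on chromosome 19. Slc45a2 lies at 11000721 to 11029233 on chromosome 15 and Mlph at 90915085 to 90951142 on chromosome 1, and Mitf (97807052 to 98021349 on chromosome 6) and Kit (75574916 to 75656722 on chromosome 5) are the remaining ones. These last 6 are on the plus strand. No member overlapped a gene on its own strand, but on the opposite strand Pmel overlapped Cdk2 and Dgka, Dct an antisense gene and Mitf a pseudogene. The sources used here do not state whether the counting used strand.

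Promoter sequences were read from RefSeq (GRCm38.p6), with 250 bases before and 50 bases from the start site, and 6 of the 9 genes had at least 1. The 3 enzyme genes are shown because each held the letters TCATGTG, the core of the M-box, an element that MITF is known to bind in pigment gene promoters. Capitals mark TCATGTG, or its reverse complement, and all runs are written 5′ to 3′ on the strand of the gene. Dct is at chr14:118052197-118052496 (minus strand), Tyrp1 at chr4:80833963-80834262 (plus strand) and Tyr at chr7:87493463-87493762 (minus strand).
Dct: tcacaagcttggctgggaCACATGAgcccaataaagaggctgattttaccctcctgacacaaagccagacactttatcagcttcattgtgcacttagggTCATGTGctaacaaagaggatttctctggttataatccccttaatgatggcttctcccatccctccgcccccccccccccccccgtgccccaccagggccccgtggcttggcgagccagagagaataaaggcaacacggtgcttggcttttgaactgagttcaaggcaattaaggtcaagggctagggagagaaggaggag
Tyrp1: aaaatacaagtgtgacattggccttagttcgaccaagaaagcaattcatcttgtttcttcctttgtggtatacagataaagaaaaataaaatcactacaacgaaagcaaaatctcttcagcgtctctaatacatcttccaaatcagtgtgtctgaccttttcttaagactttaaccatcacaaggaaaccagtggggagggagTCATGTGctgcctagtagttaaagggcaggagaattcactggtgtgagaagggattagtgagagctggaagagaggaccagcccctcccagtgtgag
Tyr: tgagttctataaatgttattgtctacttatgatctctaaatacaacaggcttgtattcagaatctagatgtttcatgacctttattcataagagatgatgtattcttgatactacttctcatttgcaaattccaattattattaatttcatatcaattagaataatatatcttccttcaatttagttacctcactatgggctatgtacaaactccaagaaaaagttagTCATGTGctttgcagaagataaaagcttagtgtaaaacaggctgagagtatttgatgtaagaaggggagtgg

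The letters stood at -47 to -41 from the start site in Tyrp1 and at -22 to -16 in Tyr. In Dct they stood at -151 to -145, and again on the other strand at -232 to -226. Among all 32851 promoters of the same length, 3.77% held TCATGTG on either strand, and 14.2% held the shorter CATGTG that it contains. The promoter of Mlph, at chr1:90914850-90915149 on the plus strand, held neither, but it held another letter pattern that the same family of factors is known to bind, CACGTG, at -48 to -43, as 7.15% of all promoters do. It is shown to set this other pattern, in capitals, beside those of the enzymes.
Mlph: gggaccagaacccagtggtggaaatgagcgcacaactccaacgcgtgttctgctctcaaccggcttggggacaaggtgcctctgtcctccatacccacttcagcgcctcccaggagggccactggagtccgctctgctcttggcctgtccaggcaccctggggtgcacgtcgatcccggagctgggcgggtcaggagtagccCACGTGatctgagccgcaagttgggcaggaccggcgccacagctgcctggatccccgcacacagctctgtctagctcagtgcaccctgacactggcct

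The 3 promoters listed for Mitf and the 2 for Kit held none of these letters in the window. A match of letters is a description of the sequence and not evidence of binding.

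Depth and make-up of the libraries set how the counts can be read. The WT matrix held 5381844 UMIs and the mgR matrix 28215539, and the filters of the study (200 to 5000 genes and at most 10% mitochondrial UMIs) kept 875 and 3438 cells. Fbn1, the targeted gene, was at 172 CPM (counts per 1000000 UMIs, 153 to 193) in WT and at 136 CPM (127 to 146) in mgR fibroblast-like cells, and no pigment cell of either library held a UMI of it. The methods state that male mice were compared, yet 28.1% of the WT cells and 60.8% of the mgR cells held Xist UMIs and no UMI of 4 Y-linked genes, so results on the number of pigment cells are also given within these cells. Of the barcodes, 2 occurred in both libraries, and neither was a pigment cell.

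Pigment cells were scarce in both libraries and made up a smaller share of the mgR library. They were 2.63% of the WT cells (23 of 875, interval 1.67 to 3.92) and 0.233% of the mgR cells (8 of 3438, interval 0.101 to 0.458). The difference, mgR minus WT, was -2.40 percentage points (-3.69 to -1.41). Among cells with Xist UMIs alone, they were 2.44% in WT (6 of 246) and 0.239% in mgR (5 of 2091), and the difference was -2.20 points (-5.00 to -0.629). Among cells with UMIs of the Y-linked genes alone, they were 1.19% in WT (4 of 337) and 0 of 724 in mgR, and the difference was -1.19 points (-3.01 to -0.186). Macrophage-like cells were 259 of the WT and 1575 of the mgR cells, so the share was taken again over pigment, fibroblast-like and endothelium-like cells only, an alternative added after the data were seen. It was then 5.42% (3.47 to 8.03) in WT and 0.602% (0.260 to 1.18) in mgR. Whether the libraries differ through the genotype, the dissection, the sort or the mice that were pooled cannot be told apart.

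**Figure D1:**
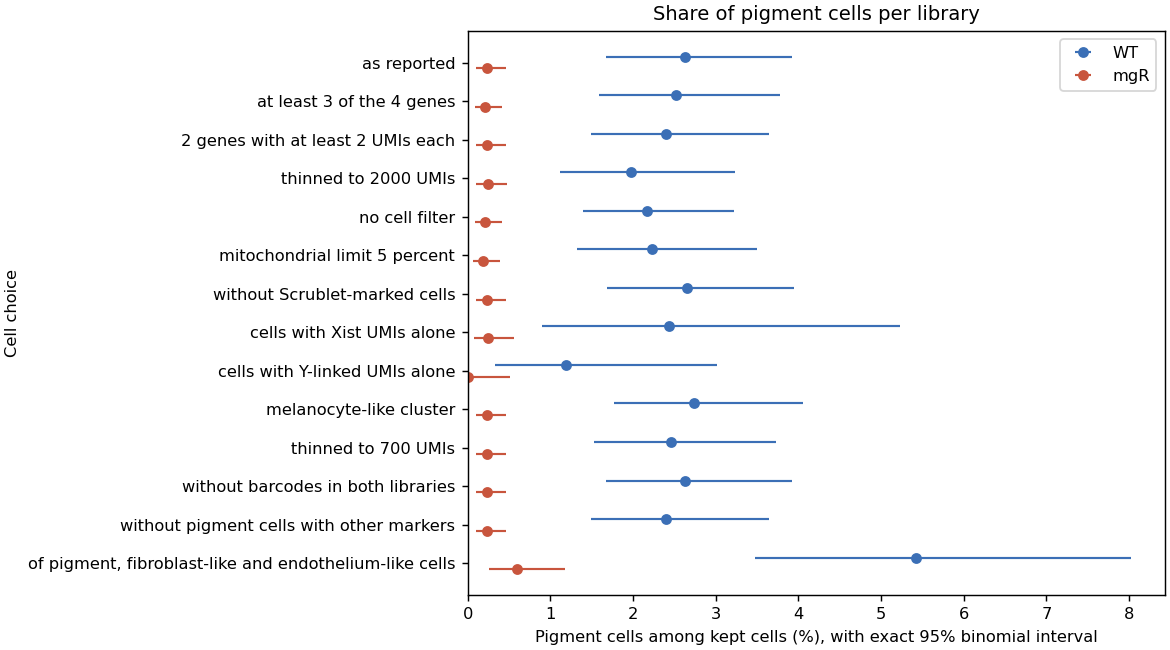
Pigment cells as a percentage of kept cells (x axis) in the WT and the mgR library, with exact 95% binomial intervals, for the reported choice of cells and for 13 other choices (y axis). The WT share lay above the mgR share under every choice drawn, and the intervals of the libraries overlapped only among cells with Y-linked UMIs alone (WT 4 of 337, mgR 0 of 724).

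The choice of cells left few doubtful cases. Of the kept WT cells, 840 held none of the 4 genes, 12 held 1, 1 held 2, 6 held 3 and 16 held all 4. The mgR cells were 3405, 25, 1, 2 and 5 in the same order. Most pigment cells therefore passed with more genes than the choice required. Just inside the limit were WT cell 23, with 4 Dct UMIs and 1 Mlana UMI, and mgR cell 8, with 72 Dct and 10 Pmel UMIs. Just outside were a pair of WT cells with 2 Dct UMIs each and an mgR fibroblast-like cell with 5 Dct UMIs. Among the barcodes that the filters left out, 1 in WT and 0 in mgR held at least 2 of the 4 genes.

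Clustering was run without the 9 genes and without the other gene lists used here, and it still set the pigment cells apart. In 1 cluster, melanocyte-like by 14 of its markers, lay 22 of the 23 WT and all 8 mgR pigment cells, with those 2 Dct-only WT cells. The exception, WT cell 18, lay in a macrophage-like cluster. It held 36 Dct, 3 Tyrp1, 14 Pmel and 1 Mlana UMIs together with 38 UMIs of the macrophage markers, including 6 of Csf1r and 7 of Ptprc. WT cell 15 held 5 UMIs of erythroid markers, and in no other pigment cell did the markers of another class reach 5 UMIs, with medians over cells of 2 UMIs in WT and 1 in mgR. Scrublet, a doublet caller, marked 0 of the 31 pigment cells. Csf1r, Ptprc and Col1a1 were at 0 in all other pigment cells.

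Pigment cells were shallow. They held a median of 2444 UMIs in WT (743 to 6256) and 3365 in mgR (2005 to 5254), against medians of 5092.5 and 7387.5 in the other cells. Mitochondrial UMIs were at a median of 3.96% in WT and 2.52% in mgR pigment cells, above the medians of 2.47% and 1.66% in the other cells. The 9 genes together took a median of 3.72% of the UMIs of a WT pigment cell (0.207 to 6.36) and 4.0% of an mgR pigment cell (2.88 to 6.25). A WT cell held UMIs of 3 to 9 of the genes, with a median of 6, and an mgR cell of 4 to 8, with a median of 7. All 9 were found together in 2 WT cells and in 0 mgR cells.

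**Figure D2:**
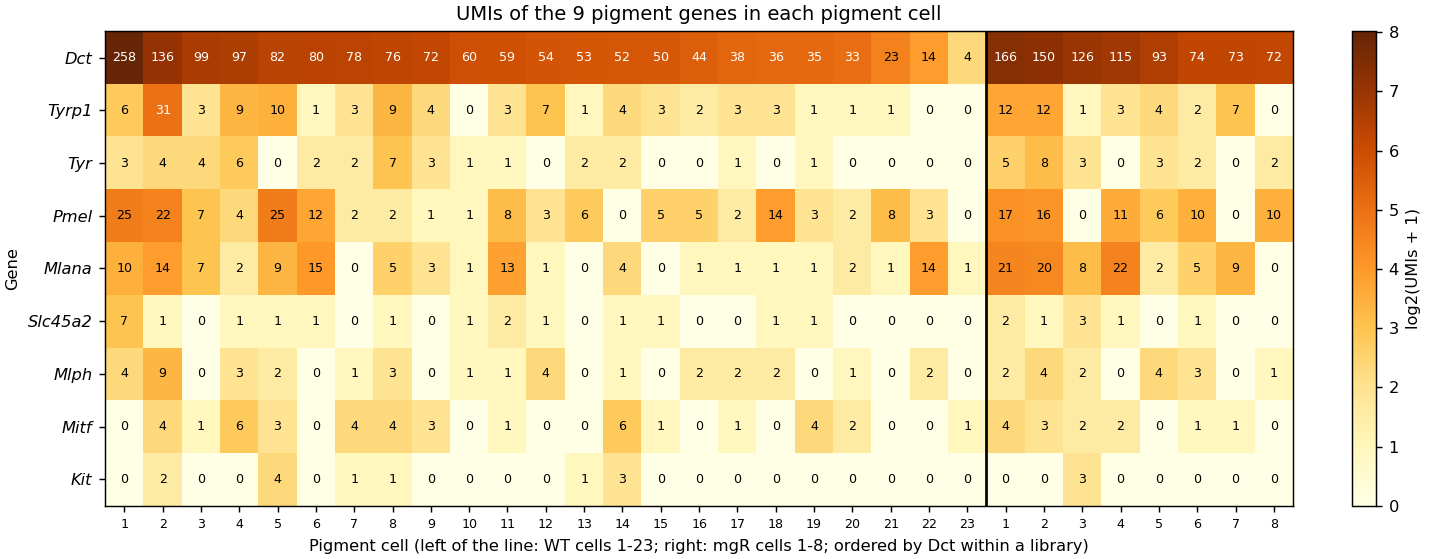
UMIs of each of the 9 pigment genes (rows) in each of the 31 pigment cells (columns, WT left and mgR right of the line, ordered by Dct), with the number of UMIs in the square and color by log2(UMIs + 1). Dct was found in all 31 cells, while Kit was found in 6 WT cells and 1 mgR cell.

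Among the enzymes, Dct was the most abundant pigment transcript. The WT pigment cells held 1533 Dct UMIs, with a lowest, median and highest cell of 4, 54 and 258. The mgR pigment cells held 869, with 72, 104 and 166. All 8 mgR cells had more Dct UMIs than the 14 WT cells from the tenth downward in order of Dct, and the ranges overlapped. Tyrp1 was found in 20 of 23 WT cells (105 UMIs, median 3, highest 31) and in 7 of 8 mgR cells (41 UMIs, median 3.5, highest 12). WT cell 2 alone held 29.5% of the WT Tyrp1 UMIs. These levels describe how the cells were chosen and were not tested. Tyr, which was not used in the choice, had UMIs in 14 of 23 WT cells (60.9%, 38.5 to 80.3) and in 6 of 8 mgR cells (75%, 34.9 to 96.8). It reached 7 UMIs in a WT cell and 8 UMIs in an mgR cell.

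The structural genes were also found in most pigment cells. Pmel had UMIs in 21 of 23 WT cells (160 UMIs, median 4, highest 25) and in 6 of 8 mgR cells (70 UMIs, median 10, highest 17). Mlana had UMIs in 20 of 23 WT cells (106 UMIs, median 2, highest 15) and in 7 of 8 mgR cells (87 UMIs, median 8.5, highest 22). The median of both genes was higher in the mgR cells, which were also deeper, and the ranges overlapped. WT cell 22 stood apart in that it held as many Mlana as Dct UMIs, 14 of each.

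Transport, regulator and receptor genes gave few UMIs per cell. The transporter Slc45a2 had 20 UMIs in 13 of 23 WT cells and 8 UMIs in 5 of 8 mgR cells. Mlph had 38 UMIs in 15 WT cells and 16 UMIs in 6 mgR cells. Mitf had 41 UMIs in 14 WT cells, at most 6 in a cell, and 13 UMIs in 6 mgR cells, at most 4 in a cell. Kit was the rarest, with 12 UMIs in 6 WT cells and 3 UMIs that all came from mgR cell 3. Of the 5 genes that did not choose the cells, at least 1 was found in 22 of 23 WT and in all 8 mgR cells, and at least 3 in 11 WT and 4 mgR cells. After each cell was thinned to 2000 UMIs, which left 15 WT and 8 mgR pigment cells, Tyr was found in 7 and 6 cells, Mitf in 9 and 4, Mlph in 8 and 6, Slc45a2 in 5 and 4, and Kit in 2 and 1.

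The pigment cells were then compared with all other cells of the same library, to see which members are particular to them by level. A gene was called when its CPM was at least 4-fold higher with at least 5 UMIs in the pigment cells, among genes with at least 10 UMIs in the library. This call was met by 2.67% of the genes in WT (325 of 12186) and by 1.37% in mgR (205 of 14914). Of the 5 genes that did not choose the cells, all 5 were called in WT, and in mgR 4 could be assessed, of which Tyr, Mitf and Mlph were called. Slc45a2, with 8 UMIs in the mgR library, fell short of the 10 UMIs needed. Kit, with 3 UMIs in mgR pigment cells, fell short of 5. The 4 genes of the choice were called in both libraries, from which nothing is read. Tyr in both libraries and Slc45a2 in WT reached the 10 UMIs only through the pigment cells. Their calls follow from that minimum, so nothing is read from them either. The same limit applies to called genes below with fewer than 10 UMIs outside the pigment cells.

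Tyr and Slc45a2, which did not choose the cells, had next to no UMIs outside the pigment cells. Slc45a2 had 0 UMIs in the 852 other WT cells and in the 3430 other mgR cells. Taking a count of 0 as up to 3 counts, this limits the share of other cells with a Slc45a2 UMI to 0.352% in WT and 0.0875% in mgR, and says nothing of cells that express it below capture. Set against 3 UMIs over these cells, its level in pigment cells was at least 466-fold higher in WT and at least 2556-fold higher in mgR, and the lower ends of the exact 95% intervals were 345-fold and 1636-fold. Tyr had 1 UMI outside in WT, in a cell of the melanocyte-like cluster, for a CPM ratio of 2726 (461 to 110397). In mgR it had 0 UMIs outside and was at least 7349.7-fold higher by the same 3 UMIs, with a lower interval end of 5511-fold. The genes of the choice are given as a description, since cells rich in them were placed among the pigment cells by construction. Dct was at 23743 CPM (22569 to 24962) in WT pigment cells against 1.99 CPM (0.912 to 3.79) in the others, and at 31259 CPM (29215 to 33408) against 0.525 CPM (0.287 to 0.881) in mgR. Tyrp1 had 0 UMIs in the other cells of both libraries.

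The remaining members not used in the choice were found outside at higher levels. Mlph was at 589 CPM (416 to 808) in WT pigment cells and 4.43 CPM (2.71 to 6.84) in the others, a ratio of 133 (75.4 to 241), and the ratio in mgR was 264 (142 to 466). For Mitf the ratio was 31.15 (21 to 45.5) in WT and 16.5 (8.73 to 28.3) in mgR. Kit had the lowest ratios, 9.02 (4.50 to 16.5) in WT and 13.8 (2.82 to 40.8) in mgR.

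**Figure D3:**
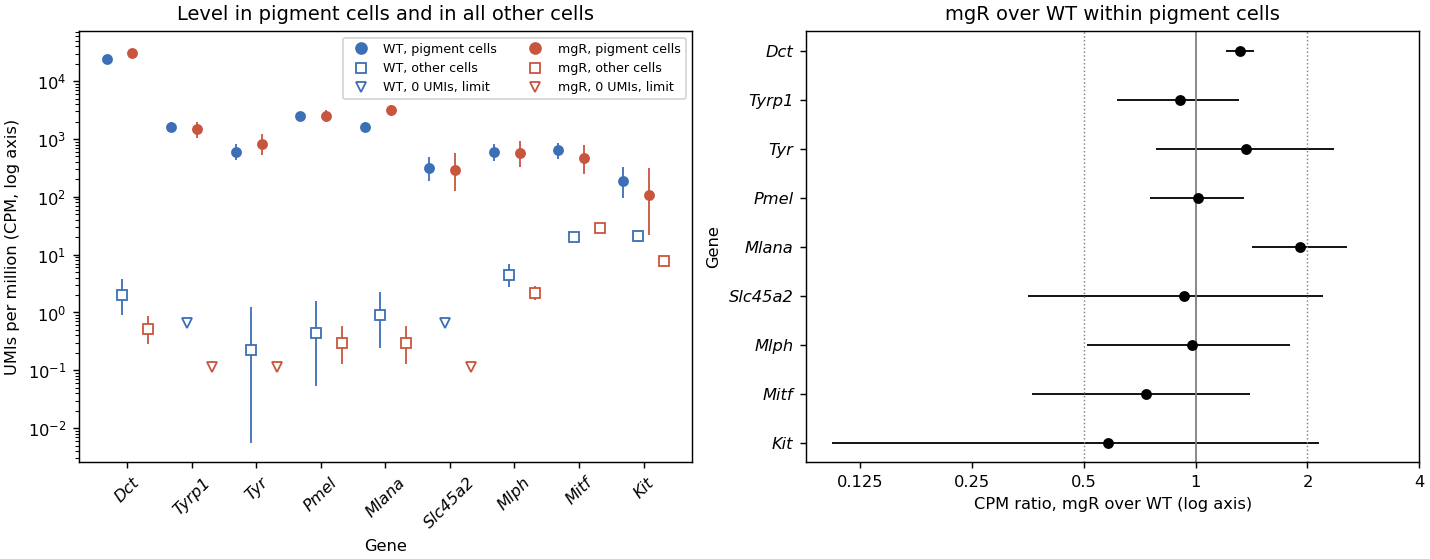
Left, CPM (log axis) of each pigment gene in pigment cells (filled circles) and in all other cells (open squares) of the WT and the mgR library, with exact 95% Poisson intervals, where open triangles mark the level that 0 UMIs allow. Right, CPM in mgR over WT pigment cells (log axis) with exact 95% intervals, where dotted lines mark 2-fold. The intervals of Dct and Mlana alone lay above 1, and no ratio reached 2.

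Pigment UMIs in other cells were sparse. At least 1 UMI of Dct, Tyrp1, Pmel or Mlana was found in 12 of 852 other WT cells (1.41%, 0.730 to 2.45) and in 25 of 3430 other mgR cells (0.729%, 0.472 to 1.07). Thinned to 2000 UMIs, the shares were 1.08% and 0.244%. Fibroblast-like cells gave 6 of these WT cells and 12 of these mgR cells, macrophage-like cells 2 and 8, endothelium-like cells 0 and 4, and T cell-like cells 2 and 0. Only 2 of the 12 WT cells lay in the melanocyte-like cluster. The most in any 1 of these cells was 2 UMIs in WT and 5 UMIs of Dct in mgR.

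The make-up of these UMIs is given as a description, since the same 4 genes chose the cells. Dct made up 80.5% of the 1904 UMIs of the 4 genes in WT pigment cells and 81.4% of 1067 in mgR. In the other cells it made up 9 of 15 UMIs in WT and 14 of 30 in mgR, where Pmel and Mlana had 8 UMIs each. Of these Dct UMIs, 4 in WT came from the 2 cells of the melanocyte-like cluster, and 5 in mgR came from 1 fibroblast-like cell.

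Mitf and Kit had their own patterns outside the pigment cells, and Mlph had a weaker one. Mitf was at 38.7 CPM (29.3 to 50.2) in WT and 43.2 CPM (39.8 to 46.9) in mgR macrophage-like cells, and at 13.0 CPM (8.23 to 19.5) and 18.5 CPM (15.4 to 22.1) in fibroblast-like cells. In endothelium-like cells it was at 4.19 CPM (0.106 to 23.4) and 4.79 CPM (2.47 to 8.36). The share of mgR macrophage-like cells with a Mitf UMI was 28.4%, and 7.77% at 2000 UMIs per cell, beside 2.69% and 0.787% of mgR endothelium-like cells, at median depths of 8164 and 5480 UMIs. The order of the pigment cells, macrophage-like, fibroblast-like and endothelium-like cells was the same in both libraries, but the WT intervals of fibroblast-like and endothelium-like cells overlapped. At 2000 UMIs per cell, the level in WT macrophage-like cells was 21.6 CPM (10.3 to 39.6).

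Kit was found mainly in immune cells. It was at 131 CPM (74.6 to 212) in WT and 62.4 CPM (44.6 to 84.9) in mgR dendritic-like cells, a cluster led by Xcr1 and Clec9a, and at 93.0 CPM (65.5 to 128) in WT and 41.8 CPM (32.8 to 52.4) in mgR cells of an unnamed cluster led by Ccl17, Ccl22 and Ccr7. T cell-like cells were at 76.2 CPM (52.4 to 107) in WT and 16.2 CPM (9.27 to 26.4) in mgR, but the class pools 2 clusters in unlike proportions (49 and 51 WT cells, 139 and 27 mgR cells), and the part of this make-up in the difference was not tested. The intervals of the dendritic-like cells and the pigment cells overlapped in both libraries, so by Kit alone the pigment cells did not stand out. At 2000 UMIs per cell, the WT dendritic-like cells were at 227 CPM (73.8 to 530). Mast-like cells, in which Kit is a known marker, were 3 and 6 cells, with 1 and 3 Kit UMIs. These few UMIs gave 512 CPM (13.0 to 2850) in WT and 309 CPM (63.7 to 902) in mgR. Pigment cells were at 186 CPM (96.0 to 325) and 108 CPM (22.3 to 315), within wide and overlapping intervals. In fibroblast-like cells Kit was at 0.564 CPM (0.0143 to 3.14) and 0.309 CPM (0.0374 to 1.11). Mlph was found in 15 of 344 WT fibroblast-like cells (10.2 CPM, 6.02 to 16.0) and in 37 of 913 mgR ones (6.17 CPM, 4.41 to 8.41), and in 0 of 259 WT and 10 of 1575 mgR macrophage-like cells.

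**Figure D4:**
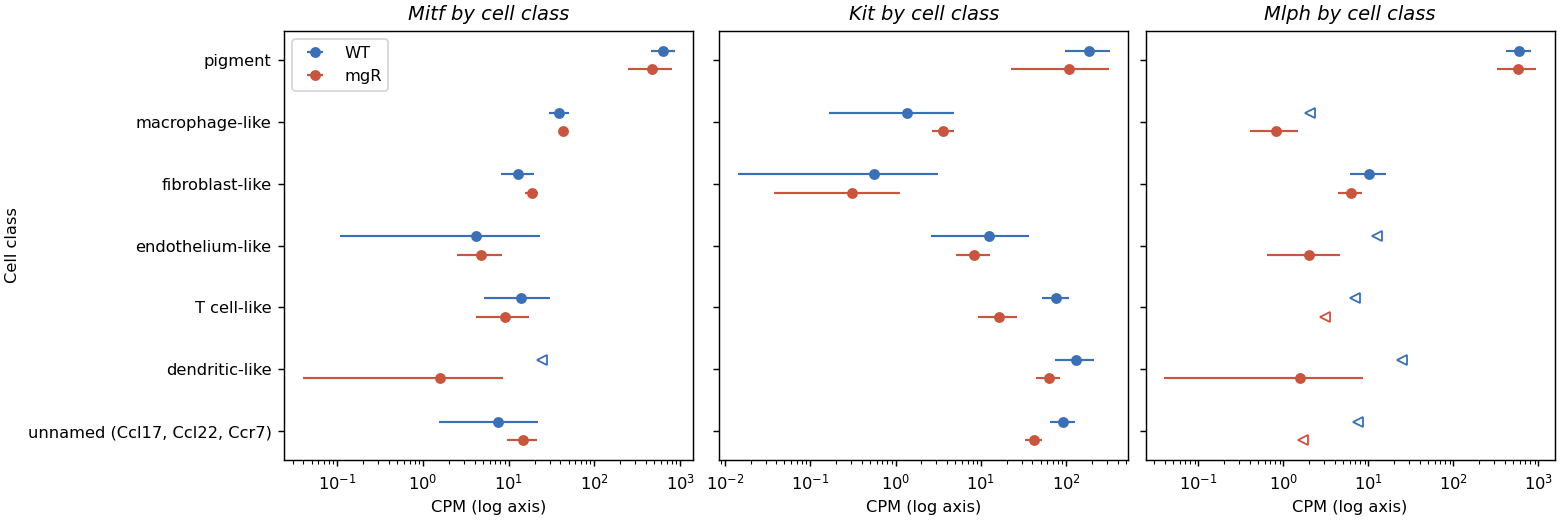
CPM (log axis) of Mitf, Kit and Mlph in the pigment cells and in 6 other cell classes (y axis) of the WT and the mgR library, with exact 95% Poisson intervals, where open triangles mark the level that 0 UMIs allow. Among the classes drawn, Mitf and Mlph were highest in the pigment cells of both libraries, while the Kit intervals of pigment and dendritic-like cells overlapped. Mast-like cells were not drawn.

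Other genes of the pigment pathway were read from fixed lists. Of 26 further genes of melanosome enzymes, channels and structure, 23 could be assessed in each library. Of these, 6 were called in WT and 7 in mgR, beside 2.67% and 1.37% of all genes. The same 6 were called in both, namely Slc24a5, Gpnmb, Trpm1, Cd63, Bace2 and Rab38, and Lyst was called in mgR alone (ratio of 2.93 in WT and 6.38 in mgR). Slc24a5, an ion exchanger of melanosomes, had 27 UMIs in 11 WT cells and 22 UMIs in 7 mgR cells, for ratios to the other cells of 65.1 and 120. Gpnmb, a melanosome glycoprotein also known in macrophages, had ratios of 59.5 and 103. Trpm1, a cation channel whose gene is a known MITF target, had ratios of 245 and 98.3, and Rab38, a GTPase that helps to deliver enzymes to melanosomes, 83.9 and 419. The median ratio of the list was 1.94 in WT and 0.704 in mgR, beside 0.852 and 0 for all genes assessed. Genes of general lysosome-related organelles gave few UMIs. Hps1, Hps4 and Hps6 had 0 in the pigment cells of both libraries, while Hps3 had 3 and Hps5 had 2 in WT and 0 in mgR. Ap3b1 had 7 UMIs in WT and 4 in mgR, with ratios of 2.05 and 2.35. As 0 UMIs allow up to 46.5 CPM in WT and 108 CPM in mgR, above the levels of Hps1, Hps4 and Hps6 in the other cells, these zeros do not tell the cells apart.

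In the transport list 3 of 5 genes were called in WT and 1 of 7 in mgR, where the call was also met by fewer of all genes (1.37% against 2.67%). Rab27a, which tethers Mlph to melanosomes, was called in both, with 14 UMIs in 9 WT cells and 9 UMIs in 6 mgR cells. Myo5a, the motor itself, had ratios of 7.93 in WT and 2.43 in mgR, and Sytl2, a Rab27a effector, had 16 UMIs in 10 WT cells and 3 UMIs in 2 mgR cells. Of the regulators, 2 of 11 were called in WT and 0 of 9 in mgR. Sox10, a neural crest factor upstream of Mitf, had 16 UMIs in 9 WT cells and 4 in 2 mgR cells, with 1 UMI outside in each library. Pax3, which acts with Sox10 on Mitf, had 29 UMIs in 18 WT cells and 7 in 4 mgR cells, with 3 and 1 outside. The 5 mgR UMIs of Sox10 in all and the 8 of Pax3 were below the 10 needed.

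Receptors and signalling genes were read next, with UMIs of an endothelin receptor and 0 UMIs of the melanocortin receptor Mc1r in the pigment cells. In this list 4 of 13 genes were called in WT and 3 of 15 in mgR, beside 2.67% and 1.37% of all genes. Ednrb, Met and Ptgds were called in both and Bcl2 in WT alone. Ednrb, the endothelin receptor of melanocytes, had UMIs in 20 of 23 WT cells (92 UMIs) and in all 8 mgR cells (56 UMIs), for ratios of 51.0 and 24.8. Met, the hepatocyte growth factor receptor, had ratios of 361 and 415. Mc1r, the receptor for melanocortin, had 0 UMIs in the 31 pigment cells, and 0 UMIs leave levels up to 46.5 CPM in WT and 108 CPM in mgR possible. Ptgds, a prostaglandin D synthase known in melanocytes, was uneven, with 12 of 23 WT cells at 0 and 3 at 10 UMIs or more, against 1 and 5 of 8 mgR cells. WT cell 6 alone held 46.8% of the WT Ptgds UMIs.

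Ligand genes were read in the pigment cells and in the other classes. Of 10 ligand genes on the list 9 were matched by symbol, and 0 were called in either library (7 and 8 assessed). The call was met by 2.67% of all genes in WT and by 1.37% in mgR. Kitl was at 118 CPM (102 to 135) in WT and 70.1 CPM (63.8 to 76.8) in mgR fibroblast-like cells, at 159 CPM (113 to 219) and 119 CPM (106 to 134) in endothelium-like cells, and had 2 UMIs in WT and 0 in mgR pigment cells. Its ratio of pigment to other cells was 0.438 (0.0528 to 1.60) in WT, and the mgR interval also held 1. Edn3, a ligand of Ednrb in development, had 0 UMIs in all cells of both libraries, so that levels up to 0.665 CPM in WT and 0.113 CPM in mgR remain possible over the other cells. Edn1, another endothelin, was at 41.9 CPM (20.1 to 77.1) in WT and 71.8 CPM (61.7 to 83.1) in mgR endothelium-like cells.

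Genes linked to Mitf and glial genes were also read. Of the Mitf-linked genes, which share Trpm1 and Gpnmb with the melanosome list and Met and Bcl2 with the receptor list, 6 of 13 were called in WT and 4 of 13 in mgR, with Cdk2, Met, Trpm1 and Gpnmb in both, and Bcl2 and Ppargc1a in WT alone. Cdk2, a cell cycle kinase whose gene overlaps Pmel on the other strand, had 24 UMIs in 12 WT cells and 14 UMIs in 5 mgR cells, and ratios of 40.9 and 61.6. Acp5, known as an Mitf target in osteoclasts, had 0 UMIs in the pigment cells of both libraries. Of the glial genes, 4 of 6 were called in WT and 4 of 8 in mgR, and the same 4 genes, Cdh19, Ncam1 and S100b among them, were called in both. S100b, a calcium-binding protein, had 80 UMIs in 20 WT cells and 32 in 8 mgR cells. The myelin gene Cnp was at 0 in all pigment cells, and Mbp had 1 UMI in WT and 0 in mgR. For Cnp and Mbp the intervals of the ratio to the other cells held 1 in both libraries. Cell cycle genes were called in neither library (0 of 14 and 0 of 15), beside 2.67% of all genes in WT and 1.37% in mgR. Mki67 had 1 UMI in WT and 0 in mgR, and the interval of its ratio to the other cells held 1 in both libraries. Of the dissociation stress genes, 0 of 12 were called in each library, with a median ratio of 0.548 in WT and 0.350 in mgR. Over all genes assessed, the median ratio was 0.852 in WT and 0 in mgR.

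Outside the members and markers, the 10 genes with the highest ratios in both libraries were Mcoln3, Gm3776, Gsta1, Kcnj13, Syt4, Nrcam, Chchd10, Gsta4, Mgll and Syngr1. Mcoln3, an endolysosomal cation channel whose mutation alters coat color, had 18 UMIs in 11 WT cells and 10 in 5 mgR cells, and 0 in all other cells. Syt4, a synaptotagmin, had 152 UMIs in 17 WT cells and 46 in 7 mgR cells, with 12 and 0 UMIs outside. Kcnj13, an inward rectifier potassium channel, had 30 UMIs in 6 WT cells and 23 in 6 mgR cells. Chchd10, a mitochondrial protein, had 46 UMIs in 18 WT cells and 46 in 8 mgR cells. Mgll, a lipase of monoglycerides, had 220 UMIs in all 23 WT cells and 115 in 7 mgR cells. Gm3776 and Gsta1 belong to a family of closely similar genes, and the split of UMIs between them is uncertain.

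By correlation over all 4313 kept cells with the mean log-normalised level of the 9 members, the 8 most alike genes included Syt4 (Pearson r = 0.756), Pax3 (0.719) and Met (0.633), followed by Gsta4, Kcnj13, Chchd10 and Nrcam (0.571 to 0.534). Of the members, Dct was at 0.940, Mitf at 0.494 and Kit at 0.307. Cells of a library are not independent and most hold no pigment UMI, so these values are a description.

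Within the pigment cells, the mgR and the WT library were then set side by side. Of the WT pigment cells, 6 held Xist UMIs alone, 4 Y-linked UMIs alone, 1 both and 12 neither. Of the mgR pigment cells, 5 held Xist UMIs alone and 3 neither. Genotype, library and this make-up by sex-linked genes cannot be told apart in the ratios below. A gene was called when its CPM differed at least 2-fold with an interval that left out 1, among genes with at least 10 UMIs in the pigment cells of both libraries together. By that call 2.7% of 1778 genes were higher in mgR (48) and 2.59% were lower (46), or 25 and 22 genes at 2000 UMIs per cell. All 9 pigment genes could be assessed, and 0 were called. Mlana came nearest, at 3130 CPM (2507 to 3860) in mgR and 1642 CPM (1344 to 1986) in WT, a ratio of 1.91 (1.42 to 2.56). Dct was next, with a ratio of 1.32 (1.21 to 1.43). These 2 intervals left out 1, and both genes had been used to choose the cells. Thinned to 700 UMIs per cell, the log2 ratio of Mlana was 0.51 (-0.59 to 1.54), so that its interval then held 1.

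The other 7 intervals held 1. Tyr had a ratio of 1.37 (0.781 to 2.35), Pmel of 1.02 (0.756 to 1.35) and Tyrp1 of 0.907 (0.616 to 1.31). Mlph was at 0.978 (0.509 to 1.80) and Slc45a2 at 0.929 (0.354 to 2.20). Mitf was at 0.736 (0.362 to 1.40) and Kit at 0.581 (0.105 to 2.15). For Slc45a2 and Kit a difference of 2-fold lay within the interval on either side, so it was not detectable at this depth. The median ratio over the 5 members not used to choose the cells was 0.929, and over all 1778 genes it was 1.0.

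Among the lists, few genes differed between the libraries, beside 2.7% of all 1778 genes higher and 2.59% lower in mgR. Gpr143, a melanosome receptor, was higher in mgR, with 3 UMIs in WT and 7 in mgR, a ratio of 5.42 (1.24 to 32.5). Bcl2, a survival factor under Mitf, was lower, with 16 UMIs in 9 WT cells and 1 in mgR, a ratio of 0.145 (0.00346 to 0.934). Gpr143 was 1 of 11 assessed genes of the melanosome list, and Bcl2 was 1 of 7 in each of its lists. In the stress list 0 of 6 assessed genes were higher in mgR and 2 were lower, Fos at 0.205 (0.0403 to 0.652) and Jun at 0.465 (0.20 to 0.962), with a list median of 0.590. The 3 mgR Fos UMIs lay in 1 cell, and 5 of the 9 mgR Jun UMIs lay in 1 cell. Fosb was at 0.974, Junb at 1.31, Atf3 at 0.715 and Egr1 at 0.211, with intervals that held 1. In the other cells Fos was at 842 CPM in WT and 784 CPM in mgR, and Jun at 725 CPM and 683 CPM. The part of the stress genes in the other differences was not tested.

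Outside the lists, the genes named were the largest called differences among genes of at least 500 CPM in the higher library, which few UMIs suffice to reach. Higher in mgR pigment cells were Tspan3 (3.48), Fermt2 (3.15), Kmt2e (3.10), Oxct1 (2.96) and Smarca5 (2.48), each with 14 to 19 mgR UMIs. Of the 14 mgR UMIs of Oxct1, 7 lay in 1 cell. Lower were Lgals3 (0.164), Klf4 (0.265), Ctsl (0.313), Ahnak (0.313) and AY036118 (0.314). Lgals3, which encodes galectin-3, had 156 UMIs in 17 of 23 WT cells and 11 in 5 of 8 mgR cells, and its level in the other cells was alike in the libraries, at 742 CPM in WT and 709 CPM in mgR. Without WT cells 15 and 18, which held markers of other classes, its ratio was 0.161 (0.0787 to 0.298). Of the genes particular to pigment cells, Chchd10 was higher in mgR, with a ratio of 2.32 (1.51 to 3.57). It was also higher in the other cells of mgR, at 9.42 CPM against 4.21 CPM in WT, so the difference was not limited to pigment cells. AY036118 was also lower in the other cells of mgR, at 666 CPM against 3203 CPM in WT.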

How the data were processed

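Mitral valve cells of 1 WT and 1 mgR library were analysed. The deposited matrices hold raw counts of UMIs for each gene in each barcode. Per the labels, the authors made them with Cell Ranger 7.1.0 and the mm10 genome from 10x Genomics 3-prime libraries. The annotation and the use of intronic reads are not given in the sources used here. The authors filtered cells afterwards, and their limits were applied here: 200 to 5000 genes and at most 10% mitochondrial UMIs. Harmony, which the study used, was not used here.

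The 9 genes and the other gene lists were chosen with earlier results of these data known. Counts were log-normalised, and 2000 variable genes without the members and list genes gave 50 principal components, a graph over 20 neighbours and 19 Leiden clusters at a resolution of 0.8 (scanpy 1.11.5). A cluster was called X-like with at least 3 markers of that class, so names may differ from those of the study. Doublets were marked with Scrublet and left in. UMIs were summed per library and divided by the total to give CPM. Shares have exact Clopper-Pearson intervals, levels exact Poisson intervals and ratios exact conditional binomial intervals, at 95%. A count of 0 was taken to allow 3 counts. The functions for ratios and calls were tested on simulated data. Genes outside the lists were named by fixed rules: for pigment against other cells, the 10 largest values of the lower of the 2 library ratios among genes with at least 20 UMIs in pigment cells (at least 5 of them in WT and 2 in mgR), and for mgR against WT, the 5 highest and 5 lowest called ratios among genes of at least 500 CPM found in at least 1 in 2 pigment cells of the higher library, without mitochondrial, ribosomal, haemoglobin or sex-linked genes. The 8 genes most alike in pattern had UMIs in at least 20 cells. Of each list, the called genes and at most 6 others were named. Gpr143, Bcl2, Fos and Jun are the list members that were called. Some genes that these rules and lists hold are not reported here.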

Additional observations from a re-analysis of the deposited data

How the results depend on the processing

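No paired analysis was possible because each genotype had 1 library. No replicate could be left out for the same reason. The share of pigment cells stayed lower in mgR under all 13 alternatives, with differences from -4.82 to -1.19 percentage points. It moved beyond its interval among cells with Y-linked UMIs alone (-1.19) and with pigment, fibroblast-like and endothelium-like cells as the denominator (-4.82). The share of other cells with a UMI of the 4 genes fell with thinning, to 0.719% in WT at 700 UMIs, and to 0.244% and 0.117% in mgR at 2000 and 700 UMIs, which by construction removes UMIs. At 2-fold in place of 4-fold, 966 genes in WT and 510 in mgR were called higher in pigment cells. Between the libraries, 78 genes were higher in mgR with no minimum of UMIs, 25 higher and 22 lower at 2000 UMIs per cell, and 7 higher and 8 lower at 700 UMIs per cell, with fewer UMIs and genes to assess after thinning. Thinned to 2000 UMIs, Mitf in WT macrophage-like cells was at 21.6 CPM and Kit in WT dendritic-like cells at 227 CPM. The cause was not tested for these 2 levels or for the shares. The log2 ratio of Dct ranged from 0.31 to 0.54 and that of Mlana from 0.51 to 1.02 over 10 alternatives, and neither turned. The log2 ratios of Tyr (-0.19 to 0.91), Pmel (-0.34 to 0.05), Mlph (-0.13 to 0.74) and Slc45a2 (-0.12 to 0.81) lay on both sides of 0 over the same alternatives. Thinning to 700 UMIs and leaving out barcodes or cells with other markers were chosen after the data were seen, as was the other denominator. Thinning to 2000 UMIs left out 8 of the 23 WT pigment cells. The 8 mgR cells and their 27800 UMIs limit what can be told of Kit, Slc45a2, Sox10 and Pax3.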
